A study of Mus musculus with 13 samples.

Results

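The small leucine-rich proteoglycans are a family of secreted matrix proteins, and 9 of their genes were followed across mouse mammary fibroblasts: Dcn (decorin), Lum (lumican), Bgn (biglycan), Fmod (fibromodulin), Ogn (osteoglycin, or mimecan), Prelp (prolargin), Omd (osteomodulin), Aspn (asporin) and Podn (podocan). They were chosen by name, as 9 of the 32285 genes listed in the count tables, and all 9 were detected in every library. The study sequenced single cells of the mammary stroma in 13 droplet libraries with 3′ chemistry, and asked how fibroblast populations change through gland development, under sex hormones and in tumour formation. Of the barcodes with 500 to 7500 genes and at most 10% mitochondrial UMIs (unique molecular identifiers, which count captured RNA molecules), a fibroblast was taken as one with at least 20 UMIs of Col1a2, a collagen I chain, per 10000 and no UMI of Epcam, Pecam1, Rgs5, Sox10, Ptprc or Myog. This left 95745 cells, and a level below is a gene's share of all UMIs of those cells in a library, scaled as CPM (counts per 1000000).

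The 5 stage libraries came from C57BL/6 wildtype females, 1 library each, with the sorted Lineage–CD24– stroma of 2 mice per condition according to the labels: puberty (4 weeks), the adult virgin gland (9 weeks), pregnancy (day 14.5), lactation (day 10) and involution (day 4). The 4 hormone libraries came from C57BL/6 wildtype females of 9 weeks sorted in the same way, with 2 libraries of placebo and 2 of MPA+E, medroxyprogesterone acetate (a progestin) with estradiol. The 4 tumour-model libraries held sorted GFP+ cells of Pdgfra-GFP KI/+ MMTV-Wnt1 T/+ females on a mixed C57BL/6 FVB background, from hyperplastic glands and from tumours of the same 2 mice, mouse 1 at 45 weeks and mouse 2 at 17 weeks. Both of these groups therefore carried the Wnt1 transgene, which the MMTV promoter drives in mammary epithelium, and both were selected on a Pdgfra reporter. The sources differ on whether 2 females made up a hormone condition, as in the labels, or were pooled into each library, as in the methods. P-values measure only the spread between these libraries, or, where the response of progenitor-like cells is set against other states, between sums of states within them. Hyperplasia and tumour of one number share a mouse, which the main fit leaves out and an alternative takes as a block.

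Between 4282 and 11388 fibroblasts per library gave 47181502 to 104000767 UMIs, with a median per cell from 4004 in pregnancy to 20206.5 in tumour 2. The gate kept 86.1% of the barcodes within the gene and mitochondrial limits, and 72.5% in hyperplasia 2 against 80.2% to 94.0% in the others. The 5 fibroblast markers summed to between 14767 and 55245 CPM in every library, and the 6 genes used to exclude other cells are at 0 by construction. Any pair of libraries shared 5 to 51 barcodes, at most 0.539% of the smaller library.

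These proteins carry a core of leucine-rich repeats, and most bear chondroitin, dermatan or keratan sulfate chains. Class I holds decorin, biglycan and asporin, class II holds lumican, fibromodulin, prolargin and osteomodulin, osteoglycin belongs to class III and podocan to a class of its own. Several bind fibrillar collagen and tune the thickness and spacing of its fibrils, decorin and biglycan also bind TGF-β, and decorin is among the most abundant products of connective tissue fibroblasts. In the mammary gland the stromal matrix around ducts and lobules is laid down largely by fibroblasts and is remodelled through pregnancy, involution and tumour growth.

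Most of the family sits in short chromosomal groups (GRCm38, GENCODE M21 annotation, all protein-coding). Dcn (chromosome 10, 97479609 to 97518143, + strand) and Lum (chromosome 10, 97565128 to 97572703, +) lie with Kera and Epyc within 202.846 kb. Aspn (chromosome 13, 49544443 to 49567565, +), Omd (49582462 to 49592822, +) and Ogn (49608046 to 49624501, +) lie with Ecm2 within 119.692 kb, and all of this group is overlapped by the antisense gene Cenpp, which read 0.514 to 4.42 CPM. Prelp (chromosome 1, 133910304 to 133921414, −) and Fmod (chromosome 1, 134037254 to 134048277, +) lie with Optc within 151.079 kb. Prelp and Optc are overlapped by the antisense gene Gm15851. Bgn (chromosome X, 73483602 to 73495933, +) and Podn (chromosome 4, 108014791 to 108096445, −, overlapping Scp2 on the same strand) stand alone. Whether the counting used strand is not given in the sources used here, so reads of overlapping genes may not be told apart.

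The 3 members that were higher in tumour than in hyperplasia fibroblasts differ in the base composition of their promoters. The 250 bases before each RefSeq transcript start are shown on the gene's own strand (RefSeq, GRCm38.p6), for Bgn (chrX:73483351-73483600, +), Fmod (chr1:134037004-134037253, +) and Aspn (chr13:49544193-49544442, +), with the letters TATAAA or their reverse complement TTTATA in capitals.
Bgn: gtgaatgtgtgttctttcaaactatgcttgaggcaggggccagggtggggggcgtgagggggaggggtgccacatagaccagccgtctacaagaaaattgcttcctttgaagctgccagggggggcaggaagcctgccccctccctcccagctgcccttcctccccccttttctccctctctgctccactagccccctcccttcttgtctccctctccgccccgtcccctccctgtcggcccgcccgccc
Fmod: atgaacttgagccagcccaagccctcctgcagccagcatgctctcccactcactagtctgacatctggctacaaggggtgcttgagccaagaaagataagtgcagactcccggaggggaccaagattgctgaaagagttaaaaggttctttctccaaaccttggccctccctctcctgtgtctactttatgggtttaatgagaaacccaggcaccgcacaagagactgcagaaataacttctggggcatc
Aspn: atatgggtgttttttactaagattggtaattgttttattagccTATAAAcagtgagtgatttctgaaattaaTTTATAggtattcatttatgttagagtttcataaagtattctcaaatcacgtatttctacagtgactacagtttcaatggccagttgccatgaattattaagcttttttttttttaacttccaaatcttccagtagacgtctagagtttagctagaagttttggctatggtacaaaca
G and C made up 64.4% of the Bgn stretch and 51.2% of the Fmod stretch, and less of the Aspn stretch than of either, beside a median of 52.4% over 32851 promoters of the same length. TATAAA was found on either strand in 2 of the 8 promoters listed for 7 of the members (Aspn and Ogn) and in 12.4% of all promoters. GGAATG, the core of TEAD sites, was found in 1 (Ogn) and in 12.6% of all, TGANTCA, the AP-1 core, in 0 and in 6.75%, and CAGACA, a SMAD-binding sequence, in 0 and in 17.1%. All were searched on both strands, and a match or its absence is a description of these letters only.

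Dcn took a smaller share of the family's UMIs in tumours than elsewhere, and Bgn a larger one. The 9 genes summed to between 1.02% (tumour 2) and 1.84% (hyperplasia 1) of all fibroblast UMIs. Dcn held 62.5% to 76.6% of the members' UMIs in the 11 libraries outside tumours and 40.9% and 30.7% in tumour 1 and 2, while Bgn held 4.195% to 13.1% and then 31.6% and 43.8%. These shares count 3′ UMIs with no length in them, and levels are otherwise compared only within a gene.

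The ratio of the highest to the lowest library ranged from 1.99 for Lum to 132 for Fmod. Lum and Prelp, at 2.43, were the steadiest of the 9, followed by Omd at 2.60, Ogn at 4.23, Dcn at 4.37, Aspn at 4.51, Podn at 4.67 and Bgn at 8.69. The libraries at the ends differed by gene: the highest level was in a tumour for Bgn, Fmod, Prelp, Omd and Aspn, in hyperplasia 1 for Dcn, in MPA+E 1 for Ogn and in involution for Lum and Podn.

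**Figure D1:**
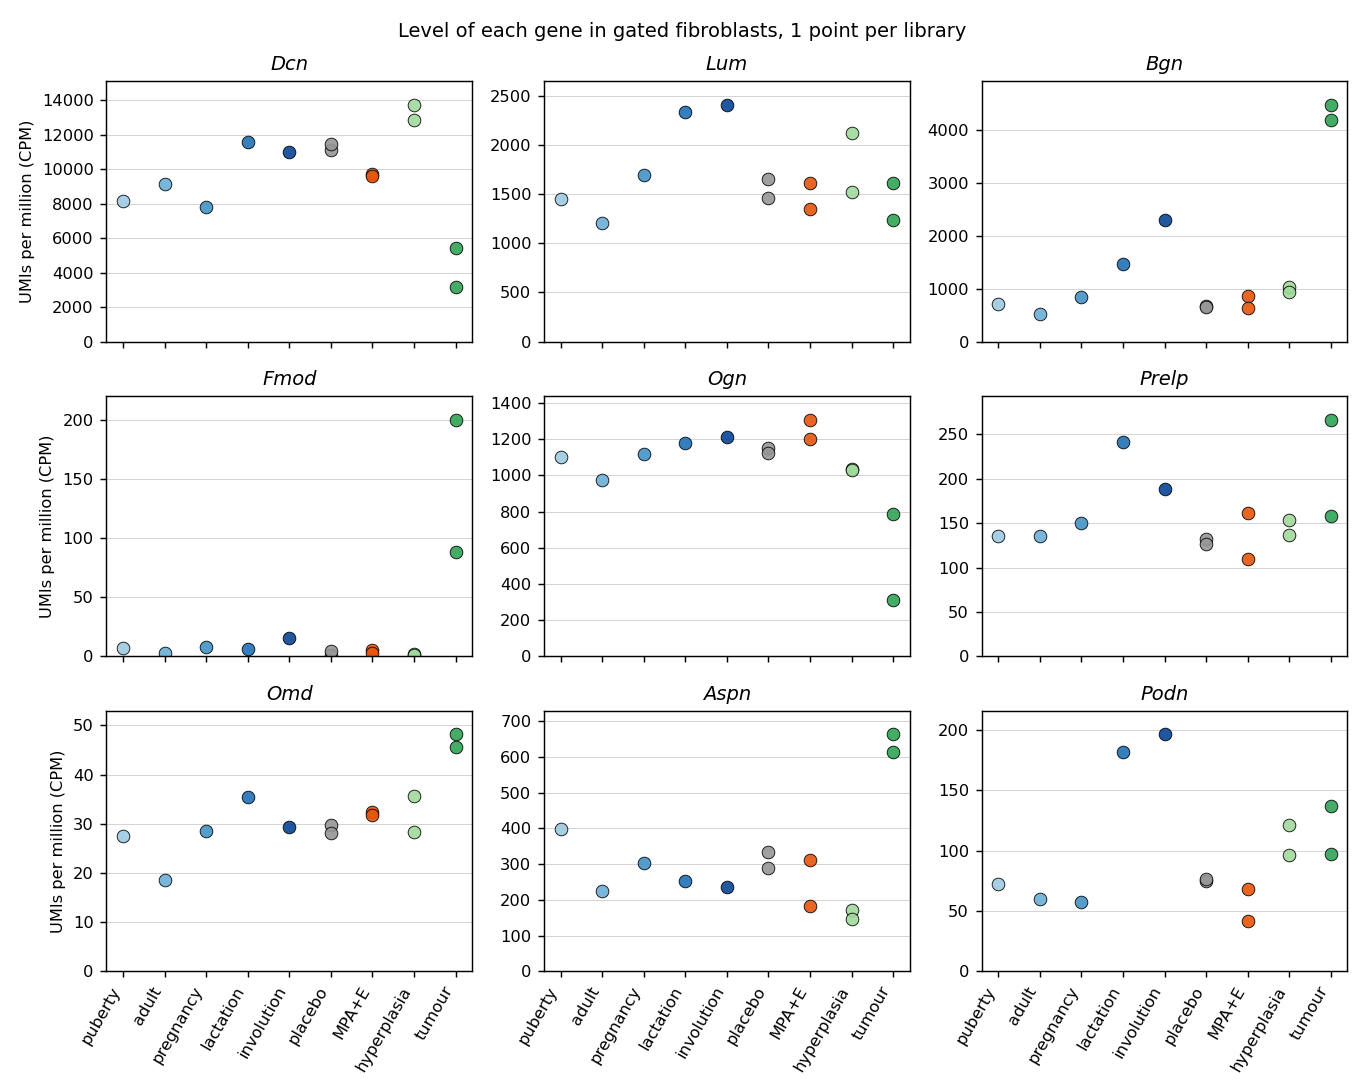
Level of each of the 9 genes (CPM over gated fibroblasts, 1 panel per gene) in the 13 libraries; each point is 1 library. Bgn, Fmod and Aspn stand highest in both tumours and Dcn and Ogn lowest there, while Podn is highest in lactation and involution.

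Across the stages of the gland Bgn, Fmod and Podn varied most, and all 3 were highest in involution. With 1 library per stage there is no test: ratios are given with exact 95% intervals that cover counting error only, and a gene was counted as past the fold threshold at a ratio of at least 2. Between the highest and the lowest stage 3 of 9 members passed it, beside 23.9% of the 12350 genes with a mean of at least 1 CPM, and the median ratio was 1.91 over the members and 1.59 over all genes.

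Through puberty, adult, pregnancy, lactation and involution Bgn read 703, 516, 849, 1476 and 2303 CPM, so involution was 4.46 times adult (4.41 to 4.52). Its level was lowest in the adult virgin and higher at each later stage. Podn, whose product is known to restrain smooth muscle cell growth, read 72.0, 60.1, 57.6, 182 and 196 CPM in that order of stages, and involution was 3.41 times pregnancy (3.27 to 3.55). Lactation and involution stood together above the other stages. Fmod read 7.48, 2.53, 7.93, 6.12 and 15.9 CPM, from 180 UMIs in adult to 1175 in involution, a ratio of 6.28 (5.36 to 7.39).

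The other 6 members were below 2-fold in the main gate, but with Col1a2 of at least 40 per 10000 UMIs Prelp reached 2.06-fold. Lum read 1452, 1213, 1700, 2342 and 2413 CPM in the same order, and its ratio of involution to adult of 1.99 (1.97 to 2.01) has an interval that spans the threshold, which its ratio passed in 3 of 6 alternatives (up to 2.01). Dcn read 8122, 9156, 7822, 11549 and 10991 CPM, Prelp 135, 135, 151, 241 and 189, and Omd 27.6, 18.5, 28.5, 35.4 and 29.3, with ratios of 1.48, 1.78 and 1.91 (1.78 to 2.04) between lactation and their lowest stage. Aspn, a class I member without a glycosaminoglycan chain, ran another way, highest in puberty at 397 CPM and then 224, 304, 253 and 236. Ogn moved least, from 973 CPM in adult to 1211 in involution, a ratio of 1.25.

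Between stages next to each other 1 of 9 members passed 2-fold in each of the comparisons made. This was Fmod in puberty over adult (2.95-fold; 3.45% of all genes), Fmod in pregnancy over adult (3.13-fold; 2.25%), Podn in lactation over pregnancy (3.16-fold; 10.7%) and Fmod in involution over lactation (2.60-fold; 4.17%). Prelp in puberty and adult, with a ratio of 1.00 (0.971 to 1.03), and Podn in pregnancy and adult, with 0.958 (0.913 to 1.01), were the pairs whose interval held equality. Of the 374 Fmod UMIs in pregnancy 129 lay in 1 unnamed cluster of 133 cells (clusters are described below), at 157 CPM. That cluster held 13 cells and 1 Fmod UMI in adult. Pregnancy fibroblasts also held the most residual epithelial signal, with 32.6 CPM summed over 6 epithelial markers. Endothelial markers, mostly Kdr, summed to 22.9, 27.4, 42.1, 5.18 and 16.4 CPM from puberty to involution. Schwann markers summed to 85.2 CPM in puberty and 37.3 in adult. The part of these cells in the values was not tested.

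Fibroblast states were set by clustering the cells of the stage, hormone and Wnt1 libraries separately, with the members left out of the genes used. Clusters were named from marker lists as progenitor-like, preadipocyte-like, ECM (extracellular matrix) remodelling-like, lobular-like and adipogenesis-regulatory-like, the lobular-like cluster in the stage and hormone sets only. Each name is 1 cluster per set. The names rest on unequal ground: a cluster of the Wnt1 libraries led by Comp, Igfbp2, Cdkn2a and Fmod had raised myofibroblast markers but none among its 10 leading genes and was left unnamed, in the stage and hormone sets none of the progenitor-like cluster's 7 markers is among its 10 leading genes, which include Krtdap, a keratinocyte gene, and the Wnt1 preadipocyte-like cluster is led in part by the interferon-response genes Ifit3, Rsad2 and Ifit1.

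The members differed in the states where they were high. Levels by state are a description without a test, given as the log2 ratio of a state's CPM to that of all other gated cells of its library. In progenitor-like cells Bgn was below the other cells in 13 of 13 libraries (median −2.49, −3.29 to −1.27), as were Fmod (−2.91) and Podn (−1.41), and Lum was below in 11 (−1.19). Ogn was above in 13 of 13 (0.84), and Omd (0.51) and Aspn (0.66) in 10. Of 45 pairs of a gene and a state 14 had every library on one side. The share over all genes is not given, so this count is not read as particular to the members. Other pairs were mixed, such as Prelp in progenitor-like cells (above in 8, below in 5). The medians of the class I genes Bgn and Aspn stood on opposite sides in this state, and Dcn was below the other cells in 11 libraries and above in 2 (median −0.30, −0.67 to 1.20).

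ECM remodelling-like cells showed nearly the reverse arrangement. Lum was above the other cells in 13 of 13 libraries (0.96), Bgn (0.95) and Dcn (0.44) in 11, and Ogn (−2.24) and Aspn (−2.40) were below in 13. Preadipocyte-like cells were also above in Lum in 13 of 13 (0.74) and below in Omd (−0.72) and Fmod (−0.58) in 11. Among the mixed pairs in preadipocyte-like cells were Ogn (above in 6, below in 7), Podn (5 and 8), Bgn (8 and 5), and Prelp and Aspn (each 4 and 9). In ECM remodelling-like cells they included Fmod (8 and 5, from −2.59 to 1.77), Podn (8 and 5, from −1.81 to 1.45) and Prelp (4 and 9, from −2.52 to 0.50).

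Podn, Prelp and Aspn were the members highest over the other cells in the lobular-like cluster, together with Fmod. In the 9 libraries with that cluster Prelp (1.31) and Aspn (1.34) were above the other cells in all 9, Podn (1.86) and Fmod (1.40) in 8, and Omd was below in 9 (−0.49). Adipogenesis-regulatory-like cells were above in Podn (1.21) and Dcn (0.25) in 13 of 13 libraries and below in Aspn in 13 (−2.22). Podn varied with stage within states as well: in ECM remodelling-like cells Podn read 19.99 CPM in puberty, on 15 UMIs of 100 cells, and 50.8, 66.7, 325 and 410 CPM from adult to involution. Over the same stages it ran from 21.5 (puberty) to 43.1 CPM (lactation) in progenitor-like, from 24.5 (adult) to 198 (lactation) in preadipocyte-like, from 136 (pregnancy) to 245 (lactation) in lobular-like and from 105 (pregnancy) to 273 (lactation) in adipogenesis-regulatory-like cells.

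**Figure D2:**
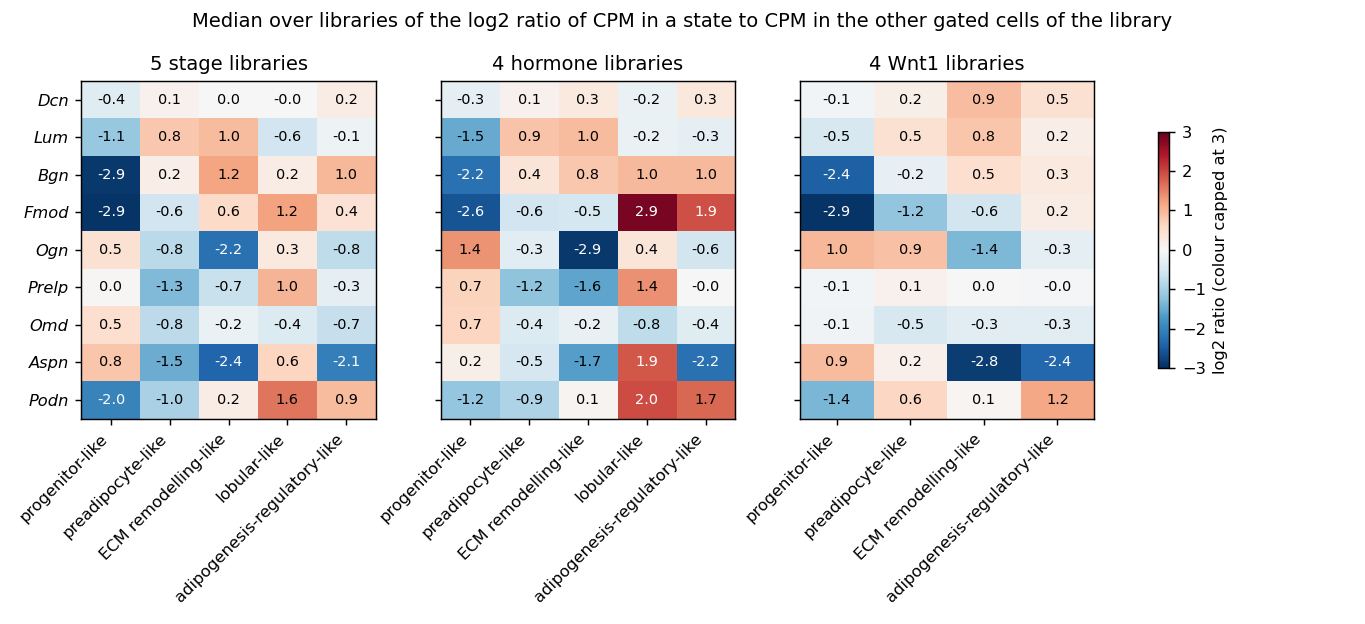
Median over libraries of the log2 ratio of each gene's CPM in a fibroblast state to its CPM in the other gated cells of the same library, in 3 heatmaps for the stage, hormone and Wnt1 sets; rows are genes and columns states. Bgn, Fmod and Podn are low in progenitor-like cells in all 3 sets, where Ogn is high, and Aspn and Ogn are low in ECM remodelling-like cells.

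Under MPA+E no member passed the test when all gated fibroblasts were summed. Of 15603 genes tested with edgeR's quasi-likelihood test, 4.63% passed an adjusted p of 0.05 and 0 of the 9 members did, with 0 also at an unadjusted p under 0.05 (18.5% of all genes) and 0 by DESeq2 (8.65%) and by limma-voom (4.54%). The libraries of the groups did not overlap for 4 of 9 members, beside 43.6% of all genes. Podn had the largest difference: it read 74.9 and 76.3 CPM with placebo and 67.9 and 42.0 with MPA+E, a difference of −0.46 ± 0.21 (log2 ± SE, adjusted p = 0.327). Both MPA+E libraries were lower, but MPA+E 1 lay close to placebo. Without it the difference was −0.80 (adjusted p = 0.024, with 5.46% of all genes called), a test in which the lone MPA+E library is assumed to vary like the placebo pair, as in every fit here that leaves 1 library in a group.

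Dcn read 11107 and 11478 CPM with placebo and 9746 and 9587 with MPA+E (−0.22 ± 0.16, adjusted p = 0.561). Aspn read 288 and 334 CPM against 313 and 182 (−0.34 ± 0.26), and its groups overlapped. Ogn at 1153 and 1125 against 1308 and 1200 CPM (0.15 ± 0.12) and Omd at 29.8 and 28.1 against 32.4 and 31.8 CPM (0.16 ± 0.09, adjusted p = 0.432) were the members with both MPA+E libraries above placebo. Lum, Bgn, Fmod and Prelp overlapped, with log2 fold changes of −0.06, 0.18, 0.34 ± 0.59 and 0.07. The median over the members was 0.07 and over all genes 0.01.

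Within the states MPA+E moved members in opposite directions. Of 44 tests of a member in a state, 7 passed. In progenitor-like cells 2 of 8 members tested fell (13.4% of all genes called), since Fmod was too low to test. Aspn read 442 and 406 CPM there with placebo and 253 and 172 with MPA+E (−0.95 ± 0.18, adjusted p = 0.0245). Omd read 48.1 and 44.6 against 34.2 and 28.5 CPM (−0.52 ± 0.10, adjusted p = 0.0300). Lum, at 885 and 805 against 594 and 413 CPM (−0.71, adjusted p = 0.0539), and Bgn, at 167 and 167 against 394 and 225 CPM (0.93, adjusted p = 0.0620), had groups that did not overlap and did not pass, and Prelp (0.44), Podn (−0.31), Dcn (−0.084) and Ogn (−0.016) did not either.

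In preadipocyte-like cells 2 of 9 members rose (4.77% of all genes called). Omd, which binds hydroxyapatite through an acidic tail and is best known from bone, read 15.4 and 13.7 CPM with placebo and 37.3 and 40.7 with MPA+E (1.43 ± 0.13, adjusted p = 0.0074), the opposite of its direction in progenitor-like cells. Ogn rose from 774 and 731 to 1363 and 1263 CPM (0.80 ± 0.12, adjusted p = 0.0277). Fmod had the largest log2 fold change there, on 14 and 7 UMIs with placebo and 112 and 22 with MPA+E, and did not pass (2.36 ± 0.70, adjusted p = 0.150). Bgn (0.53), Podn (−0.67), Aspn (0.35), Prelp (−0.27), Dcn (−0.097) and Lum (0.022) did not pass either.

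In ECM remodelling-like cells 3 of 9 passed (1.15% of all genes called). Prelp fell from 97.4 and 76.7 to 32.6 and 26.4 CPM (−1.62 ± 0.15, adjusted p = 0.0124) and Podn from 94.2 and 81.8 to 48.3 and 43.3 CPM (−1.003 ± 0.13, adjusted p = 0.0314). Aspn rose there from 52.2 and 68.3 to 191 and 154 CPM (1.44 ± 0.20, adjusted p = 0.0366), against its fall in progenitor-like cells. Omd (0.83, adjusted p = 0.0652), Fmod (−1.01 ± 0.32), Dcn (−0.64), Ogn (0.49), Bgn (−0.22) and Lum (0.0085) did not pass. In lobular-like (2.59% of all genes called) and adipogenesis-regulatory-like cells (3.44%) 0 of 9 passed with edgeR, with 1 at an unadjusted p under 0.05 in each, Podn at −0.66 (adjusted p = 0.0692) and Ogn at 0.62 (adjusted p = 0.0692). The other 8 members lay between −0.19 (Dcn) and 0.35 (Omd) in the first and between −0.23 (Bgn) and 0.24 (Omd) in the second.

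These calls rest on few libraries. Over all genes and states 5.29% of tests passed with all libraries, and 1.68%, 1.71%, 5.28% and 6.01% with placebo 1, placebo 2, MPA+E 1 or MPA+E 2 left out. Without placebo 1 none of the 7 passed, without placebo 2 4 tests did, without MPA+E 1 8 and without MPA+E 2 7, in part other tests than the 7 with all libraries. Ogn in preadipocyte-like and Podn in ECM remodelling-like cells lost their call with any 1 library left out. Aspn in progenitor-like cells lost it without either placebo library (adjusted p = 0.103 in both), Omd there without placebo 1, placebo 2 or MPA+E 2 and also at a clustering resolution of 0.5 (−0.42, adjusted p = 0.0667), where Podn passed in its place (−0.75, adjusted p = 0.0145), and Aspn in ECM remodelling-like cells without placebo 1 or MPA+E 1. Omd in preadipocyte-like (adjusted p = 0.0503) and Prelp in ECM remodelling-like cells (adjusted p = 0.0587) lost it without placebo 1 alone. Residual markers of other cell types also moved with the treatment. The 5 endothelial markers summed to 14.4 to 14.8 CPM with placebo and 44.1 to 44.9 with MPA+E (nearly all Kdr, with Pecam1 at 0 by the gate). The 5 pericyte markers summed to 19.4 to 20.6 and 11.5 to 12.7 CPM. Among them Kcnj8 (11.1 and 9.99, then 4.78 and 3.29) and Cspg4 (4.08 and 4.25, then 3.42 and 2.72) fell. Notch3 and Mcam overlapped, both highest in MPA+E 2, and Rgs5 was at 0 by the gate. The 6 tendon and cartilage markers summed to 28.3 and 28.5, then 27.5 and 18.5 CPM. The part of these cells in the values was not tested.

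**Figure D3:**
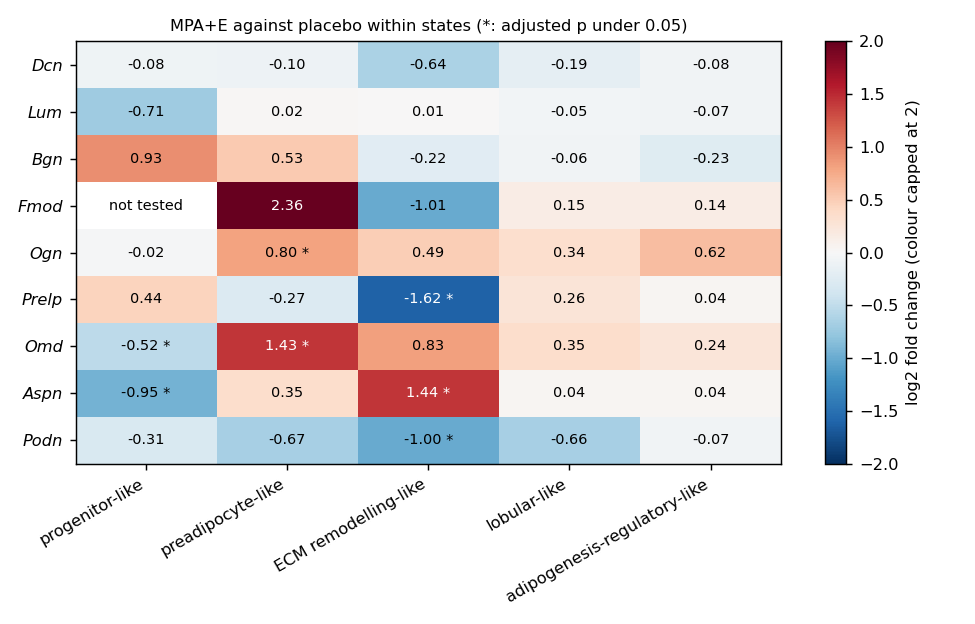
Log2 fold change of MPA+E over placebo for each gene (rows) within each named fibroblast state (columns), with an asterisk where the adjusted p was under 0.05. Aspn is negative in progenitor-like and positive in ECM remodelling-like cells, and Omd is negative in progenitor-like and positive in preadipocyte-like cells.

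The response of progenitor-like cells was then tested against the mean response of the other 4 named states, with the library as a term. Here 6 of 9 members passed, beside 11.9% of 13916 genes. The fit took each state of each library as an observation, so its p-values count states of the same libraries as replicates. The difference was −1.47 ± 0.15 for Aspn (adjusted p = 9.8e-06), −1.23 ± 0.13 for Omd (adjusted p = 9.8e-06), −0.70 ± 0.10 for Lum (adjusted p = 0.000196) and −0.59 ± 0.11 for Ogn (adjusted p = 0.00154), the response being lower in progenitor-like cells than in the others. It was 0.90 ± 0.18 for Bgn (adjusted p = 0.0040) and 0.82 ± 0.16 for Prelp (adjusted p = 0.00266), in the other direction. Dcn (0.16), Podn (0.28) and Fmod (1.40 ± 2.27) did not pass. Bgn did not pass without MPA+E 1 (0.52, adjusted p = 0.0682) nor Prelp without placebo 2 (0.69, adjusted p = 0.0652).

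Hyperplastic glands of MMTV-Wnt1 mice were compared with the 2 normal virgin libraries, puberty and adult, which differ from them also in strain, sort and age, so that genotype and these cannot be told apart. The 2 stages served as replicates of 1 group. The difference between them is thus part of the spread in this fit, which the tumour comparison shares. No member passed in the limma-voom fit (0 of 9, beside 13.9% of 16115 genes), 3 did at an unadjusted p under 0.05 (35.2% of all genes), and DESeq2 called 4 (25.2%). Groups did not overlap for 8 of 9 members, beside 71.0% of all genes. The closest to the threshold were Bgn, at 703 and 516 CPM in normal and 1040 and 946 in hyperplasia (0.69 ± 0.21, adjusted p = 0.0698), Aspn, at 397 and 224 against 171 and 147 CPM (−0.94 ± 0.29, adjusted p = 0.0716), and Podn, at 72.0 and 60.1 against 121 and 96.6 CPM (0.69 ± 0.23, adjusted p = 0.0915). Dcn, at 13735 and 12868 CPM in hyperplasia, was above the other 11 libraries (0.60 ± 0.29, adjusted p = 0.187), and the remaining differences, none of them called, lay between −1.23 ± 0.79 (Fmod) and 0.47 ± 0.24 (Omd). Residual markers of other cell types were lower in hyperplasia for endothelial cells (22.9 and 27.4 CPM in normal, 5.73 and 12.9 in hyperplasia), Schwann cells (85.2 and 37.3, then 25.3 and 28.6) and muscle (8.44 and 4.29, then 0.514 and 0.914), with Pecam1, Sox10 and Myog at 0 by the gate. Immune markers were higher (6.13 and 3.24, then 6.86 and 7.10, with Cd3e at 0 in both normal libraries and at 3.08 and 4.28 in hyperplasia and Ptprc at 0 by the gate), and the part of any of these cells was not tested. With either tumour library left out, which enters this comparison only through the shared fit, 4 members passed, Dcn, Bgn and Podn higher and Aspn lower, beside 28.4% and 28.6% of all genes in those fits.

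From hyperplasia to tumour Bgn, Fmod and Aspn rose, Dcn fell and the other 5 members gave no call. The 4 of 9 called stand beside 29.0% of 16115 genes with an adjusted p under 0.05 (14.9% higher, 14.1% lower). Groups did not overlap for 7 of 9 members, beside 72.4% of all genes, and the median log2 fold change was 0.50 over the members and −0.01 over all genes. This comparison shares its hyperplasia libraries with the one before, so the 2 are not independent.

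Fmod, whose product guides collagen fibril maturation in tendon, went from 2.08 and 1.52 CPM (105 and 88 UMIs) in hyperplasia to 201 and 88.7 CPM (20857 and 7850 UMIs) in tumours, a log2 fold change of 6.23 ± 0.73 (adjusted p = 0.00608). Bgn went from 1040 and 946 to 4199 and 4481 CPM (2.12 ± 0.22, adjusted p = 0.00438). Aspn, which binds collagen and antagonises TGF-β in cartilage, went from 171 and 147 to 614 and 663 CPM (2.00 ± 0.29, adjusted p = 0.0095). Both tumours stood above both hyperplasias in all 3, and for Bgn and Aspn the tumours lay close together while for Fmod they differed. Dcn fell from 13735 and 12868 to 5438 and 3143 CPM (−1.69 ± 0.29, adjusted p = 0.0133), with tumour 2 the lowest of all libraries.

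The other class II members and Ogn gave no call. Ogn read 1037 and 1030 CPM in hyperplasia and 784 and 309 in tumours (−1.08 ± 0.42, adjusted p = 0.095), Prelp 137 and 153 against 266 and 158 CPM (0.50 ± 0.26, adjusted p = 0.183) and Omd 28.4 and 35.6 against 48.1 and 45.6 CPM (0.55 ± 0.24, adjusted p = 0.119). For each of these the groups did not overlap, with tumour 2 at the far end for Ogn and tumour 1 for Prelp. Lum, at 2121 and 1521 against 1619 and 1241 CPM (−0.35 ± 0.25), and Podn, at 121 and 96.6 against 137 and 97.4 CPM (0.09 ± 0.24), showed the smallest differences, and their groups overlapped.

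Bgn alone passed with either hyperplasia library left out, when 205 (without hyperplasia 1) and 317 (without hyperplasia 2) of all genes did: adjusted p without hyperplasia 1 and 2 was 0.0998 and 0.0706 for Dcn, 0.0677 and 0.0558 for Fmod and 0.0713 and 0.0641 for Aspn. The log2 fold change of Ogn was −1.77 without tumour 1, and that of Prelp was 0.91 without tumour 2. The 6 markers of tendon and cartilage cells, which also express Fmod and Aspn, summed to 13.2 to 25.4 CPM in hyperplasia and 53.7 and 57.1 in tumours, and none of the 6 was at 0. Higher in both tumours were Comp, from 0.277 and 0.690 to 14.0 and 11.7 CPM, Sox9, from 20.9 and 10.3 to 35.8 and 39.1, and Scx, from 0.534 and 0.207 to 2.75 and 4.62. Lower in both were Tnmd, from 2.67 and 1.40 to 0.644 and 1.33 CPM, and Col2a1, from 0.494 and 0.241 to 0.0962 and 0.0113, while Mkx, at 0.534 and 0.414 against 0.413 and 0.429, overlapped. The 5 pericyte markers summed to 19.8 to 21.2 CPM and 35.5 to 44.3, with Rgs5 at 0 by the gate, and 2 keratinocyte markers to 54.6 to 120 CPM and 20.4 to 35.6. Of the keratinocyte markers, Krtdap is also among the leading genes of the progenitor-like clusters in the stage and hormone sets. Endothelial markers summed to 5.73 to 12.9 CPM in hyperplasia and 2.91 to 3.60 in tumours, Schwann markers to 25.3 to 28.6 and 15.0 to 20.04, immune markers to 6.86 to 7.10 and 8.04 to 16.1 (with Ptprc at 0 by the gate), and the 5 fibroblast markers to 14767 to 18758 and 38030 to 42382, and the part of these cells in the differences was not tested.

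**Figure D4:**
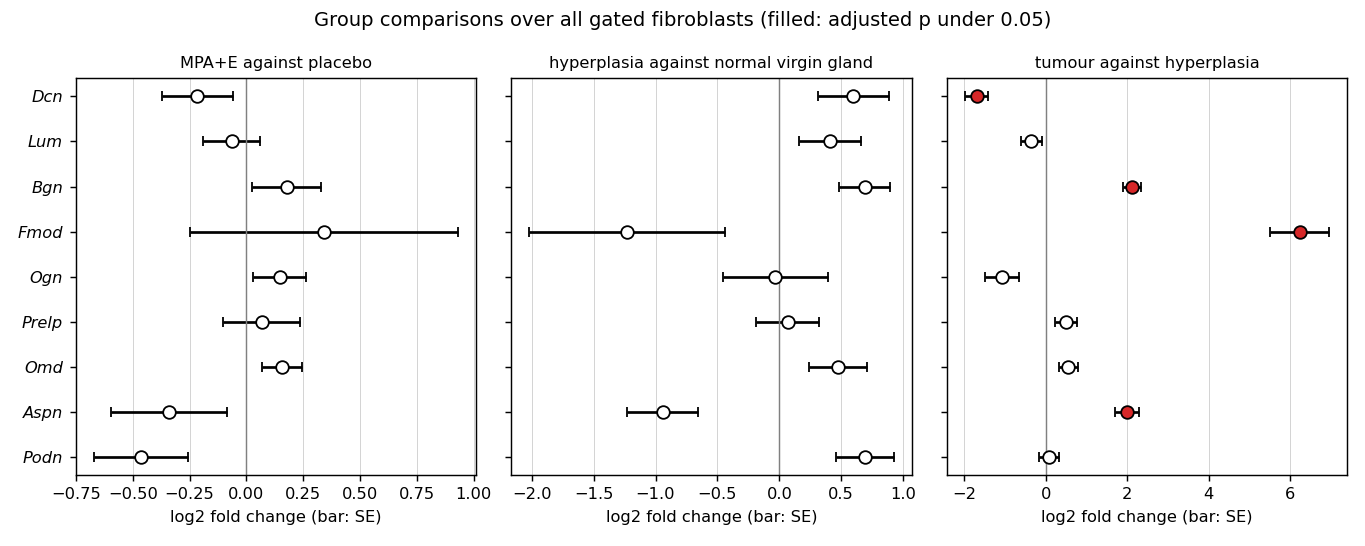
Log2 fold change ± SE of each gene in 3 comparisons of gated fibroblasts, MPA+E over placebo, hyperplasia over normal virgin gland and tumour over hyperplasia; filled points have an adjusted p under 0.05. Filled points are found in the tumour comparison only, for Dcn below 0 and for Bgn, Fmod and Aspn above it.

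The share of cells with a UMI was also higher in tumours than in hyperplasia for Fmod, Bgn and Aspn. With each cell thinned to 3000 UMIs, 0.410% of fibroblasts of hyperplasia 1 and 0.479% of hyperplasia 2 held an Fmod UMI, against 19.3% (18.4% to 20.1%, exact binomial) and 15.3% (14.2% to 16.4%) in tumour 1 and 2. Unthinned, the tumour shares were 28.7% and 33.4%. Epithelial barcodes of the same libraries, thinned likewise, held an Fmod UMI in 0 of 39 in tumour 1 (exact upper limit 9.03%) and in 1.57% of 127 in tumour 2 (0.191% to 5.57%), at median depths before thinning of 13912.5 and 9716 UMIs against 10866 and 20206.5 in fibroblasts. For Aspn the thinned share was 21.3% to 54.3% outside tumours and 66.8% and 61.4% in them, and for Bgn 51.9% to 82.3% and 96.2% and 99.8%. The epithelial shares of Aspn were 0 of 39 in tumour 1 (upper limit 9.03%), 0.787% of 127 in tumour 2 (0.0199% to 4.31%) and 0 of 93 in hyperplasia 2 (upper limit 3.89%). Those of Bgn were 17.9% (7.54% to 33.5%), 64.6% (55.6% to 72.8%) and 53.8% (43.1% to 64.2%) of the same barcodes. A UMI of Bgn was thus common in epithelial barcodes too, though below the 96.2%, 99.8% and 73.8% of fibroblasts in those libraries. Dcn also read 166 to 842 CPM in epithelial barcodes of the 8 libraries with at least 20 of them. Whether such UMIs were carried over from fibroblasts was not tested.

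The mix of states differed between hyperplasia and tumour, so the 4 states with enough cells were compared each on its own, a comparison added after the data had been seen. ECM remodelling-like cells made up 49.7% and 46.6% of hyperplasia fibroblasts and 10.7% and 9.3% of tumour fibroblasts. The unnamed cluster led by Comp, Igfbp2, Cdkn2a and Fmod itself held 4 cells in each hyperplasia library and 25.7% and 28.4% of the tumour libraries. Of 36 tests of a member in a state, 10 passed with limma-voom, 1 of them (Fmod in progenitor-like cells) only because its tumour libraries carried it past the low-count filter, and 17 with the mouse as a block, since hyperplasia and tumour of one number came from the same mouse.

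In the fit without the mouse Bgn rose in 3 of the 4 states, and Fmod in 3 in which hyperplasia alone passed the filter. In progenitor-like cells 3 of 9 members passed (2.51% of all genes called): Bgn went from 134 and 167 to 1252 and 1880 CPM (3.41 ± 0.25, adjusted p = 0.00484), and Prelp rose by 1.20 ± 0.19 (adjusted p = 0.0266). The third call is Fmod, on 4 and 2 UMIs in hyperplasia and 60 and 5 in tumours, which entered the fit through the tumours and is not read. The state with the least Bgn in the normal gland thus had a level in tumours above that of every normal and hyperplastic progenitor-like cluster. Lum (1.00), Aspn (0.93), Omd (−0.62), Ogn (−0.48), Dcn (−0.34) and Podn (0.043) did not pass. In preadipocyte-like cells 2 of 9 passed (2.96%), Bgn from 1066 and 914 to 3058 and 3404 CPM (1.68 ± 0.19, adjusted p = 0.0199) and Fmod from 2.44 and 1.42 to 10.4 and 17.6 CPM (2.71 ± 0.41, adjusted p = 0.0349). Aspn (1.56, adjusted p = 0.0607), Ogn (−0.94) and Dcn (−0.70) did not, and the other 4 members lay between −0.11 (Podn) and 0.39 (Prelp).

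In ECM remodelling-like cells 1 of 9 passed (0.351%), Fmod from 2.11 and 2.04 to 34.2 and 41.0 CPM (4.02 ± 0.21, adjusted p = 0.0220). Bgn, from 1454 and 1462 to 3241 and 4688 CPM (adjusted p = 0.0756), and Aspn, from 33.9 and 30.2 to 152 and 94.4 CPM (adjusted p = 0.0789), did not. In adipogenesis-regulatory-like cells 4 of 9 passed (2.09%): Aspn from 23.4 and 14.0 to 176 and 331 CPM (3.64 ± 0.36, adjusted p = 0.00635), Fmod from 6.44 and 6.59 to 69.2 and 45.3 CPM (3.01 ± 0.36, adjusted p = 0.00837), Bgn from 1580 and 1667 to 4074 and 4080 CPM (1.25 ± 0.18, adjusted p = 0.0152), while Ogn fell from 854 and 868 to 434 and 387 CPM (−1.15 ± 0.20, adjusted p = 0.0334). Dcn gave no call within any state in this fit, with log2 fold changes from −1.101 to −0.34.

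With the mouse as a block the 10 calls were kept and 7 were added, while the share of all genes called rose too, from 1.96% to 14.0% of the tests over the 4 states (9.56% in progenitor-like, 17.0% in preadipocyte-like, 15.8% in ECM remodelling-like and 13.5% in adipogenesis-regulatory-like cells). Aspn passed in progenitor-like (0.95, adjusted p = 0.0253), preadipocyte-like (1.57, adjusted p = 0.00727) and ECM remodelling-like cells (1.77, adjusted p = 0.00854), and Bgn (1.28, adjusted p = 0.0159) and Podn (0.57, adjusted p = 0.0403) in ECM remodelling-like cells. Dcn was lower in preadipocyte-like (−0.70, adjusted p = 0.0414) and adipogenesis-regulatory-like cells (−1.04, adjusted p = 4.2e-07). Whether the added calls exceed that general rise was not tested.

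In tumours the highest levels of Bgn and Fmod in a cluster lay in the Comp-led one, which had too few hyperplasia cells to test. There Fmod read 612 and 260 CPM in tumour 1 and 2, Bgn 7179 and 6641, Aspn 696 and 1012 and Omd 93.4 and 87.4, while Dcn read 2118 and 2907. Aspn was higher still in progenitor-like cells of tumour 1, at 757 CPM, and lower in those of tumour 2, at 470. Fmod is also among the leading genes that describe this cluster, so its level there is no independent result. Another unnamed cluster, with Calca, Mmp9, Lcn2 and the contractile genes Acta2 and Myh11 among its 10 leading genes, held 21.5% of tumour 1 and 40.3% of tumour 2 fibroblasts, with Fmod at 95.3 and 31.8 CPM, Aspn at 570 and 662 and Bgn at 4204 and 3809. Tumour 2 contributed 85 progenitor-like and 156 preadipocyte-like cells, against 1982 and 1152 in tumour 1. Without hyperplasia 2 6 calls passed (1.20% of all tests) and without tumour 1 18 did (13.8%): calls lost without hyperplasia 2 were Bgn (adjusted p = 0.068), Fmod and Prelp in progenitor-like cells, Fmod in preadipocyte-like cells (adjusted p = 0.0519) and Ogn in adipogenesis-regulatory-like cells (adjusted p = 0.0536). Without hyperplasia 1 Fmod and Prelp in progenitor-like and Ogn in adipogenesis-regulatory-like cells did not pass.

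**Figure D5:**
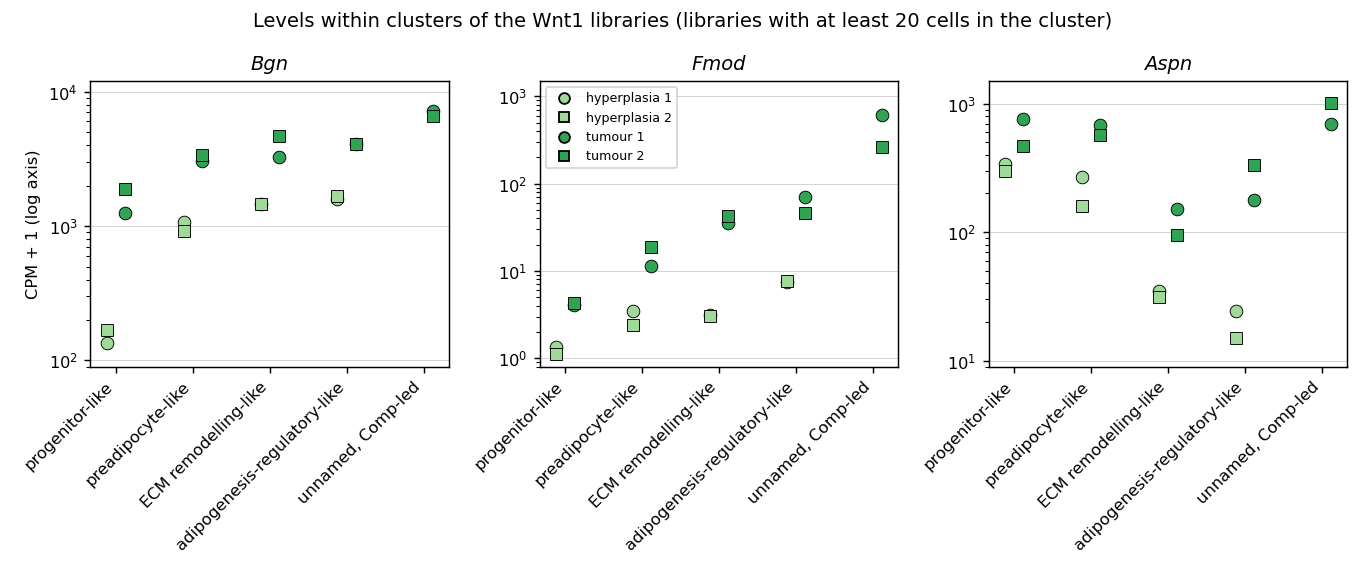
Level of Bgn, Fmod and Aspn (CPM + 1, log axis) in 4 named fibroblast states and the unnamed Comp-led cluster of the hyperplasia and tumour libraries; each point is 1 library with at least 20 cells there. Tumour points lie above hyperplasia points of the same state for all 3 genes, as for Bgn in progenitor-like cells, from 134 and 167 to 1252 and 1880 CPM.

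The genes that build and organise these proteins were read from lists. A list's count is read beside the share of all genes called, 29.0% between hyperplasia and tumour. Between hyperplasia and tumour 2 of 8 other family genes were higher and 1 lower: Tsku (tsukushi) rose by 1.60 (adjusted p = 0.0042), Ecm2, a neighbour of Aspn, fell from 155 and 102 to 60.2 and 45.4 CPM (−1.27, adjusted p = 0.0197), and the other higher gene, Chad (chondroadherin), at 1 and 0 UMIs in hyperplasia and 111 and 172 in tumours, passed the low-count filter only through the tumours, so its call is not read. Of 22 genes of chondroitin and dermatan sulfate synthesis 8 were higher and 2 lower, among them Csgalnact1, which starts chondroitin chains (1.75), with Chsy3 (1.29) and B4galt7 (1.27) higher and the sulfotransferase Chst7 lower (−2.49). Of the 5 keratan sulfate genes tested 2 were higher (Chst2 1.70, B3gnt2 0.79) and 1 lower (Chst1 −1.81). Of 11 fibrillar collagen and procollagen processing genes 4 were higher and 0 lower, with Col11a1 at 0.138 and 0.172 CPM in hyperplasia and 134 and 116 in tumours (9.56), Col5a2 (1.47), and the propeptide proteases Adamts2 (0.92) and Bmp1 (0.79), and of 2 large proteoglycans Vcan was higher (1.43). The list medians were 0.37, 0.19, 0.54, 0.86 and 0.68, beside −0.01 over all genes. With a library left out the calls of these 5 lists ran from 0 to 5, 1 to 11, 0 to 3, 1 to 8 and 0 to 1, each at its lowest without hyperplasia 1.

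Under MPA+E the same lists held few calls, beside 4.63% of all genes. None of 5 other family genes passed, and 1 of 22 chondroitin and dermatan sulfate genes rose, Chst13 from 0.190 and 0.260 to 3.08 and 2.04 CPM (3.49 ± 0.34, adjusted p = 0.0105). The keratan sulfate sulfotransferase Chst1 fell from 21.8 and 21.1 to 9.46 and 11.6 CPM (−1.01, adjusted p = 0.0323), 1 of 5 of its list. Of 11 collagen genes Col11a1 rose (2.61, adjusted p = 0.0068) and Pcolce2, an enhancer of procollagen cleavage, fell from 742 and 731 to 322 and 314 CPM (−1.20, adjusted p = 0.0096), and 0 of 2 large proteoglycans passed. The list medians were −0.35, 0.03, −0.10, 0.17 and 0.33, beside 0.01 over all genes, and with a library left out the calls ran from 0 to 0, 0 to 2, 0 to 1, 0 to 2 and 0 to 0, with Chst13 and Chst1 not called without either placebo library. Between hyperplasia and normal glands, where 13.9% of all genes were called, 1 of 8 other family genes was higher (Ecm2 1.097), 1 of 22 chondroitin and dermatan sulfate genes was higher (Csgalnact1 1.57), 3 of 11 collagen genes were lower (Adamts2 −1.20, Pcolce −1.16, Bmp1 −0.74), and 0 of 5 keratan sulfate genes and 0 of 2 large proteoglycans passed. All of these were lost without puberty, adult or either hyperplasia library, and without a tumour library up to 3, 6, 4, 1 and 1 genes of these lists passed.

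For each member the genes with the most similar pattern over the 13 libraries were sought among 5622 genes with a mean of at least 20 CPM, by Pearson's r of log2(CPM + 1), as a description. The libraries share the 2 tumours that stand apart, and depth differs between them. Bgn was most like Gask1b (0.977), Mgp (0.969) and Plaat3 (0.959), Fmod like Ltbp2 (0.958), Mrc2 (0.948) and Zmat3 (0.934), and Aspn like Serf1 (0.927), Tspan6 (0.925) and Chpf (0.912). Dcn was most like Kdm6a (0.973), Tle4 (0.970) and Ncoa1 (0.967), and Ogn like Scara5 (0.976), Xdh (0.970) and Sult5a1 (0.963). Podn was most like Cxcl12 (0.941), Itsn1 (0.923) and Setbp1 (0.899), Prelp like Idh1 (0.905), Lats2 (0.876) and Adam19 (0.875), Omd like Oip5os1 (0.918), Tmem59 (0.898) and Dkk3 (0.887), and Lum like mt-Nd4l (0.913), Setd7 (0.898) and mt-Nd6 (0.896).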

How the data were processed

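Single-cell libraries were made by the authors with a droplet 3′ kit and, per the labels' processing notes, counted with Cell Ranger 6.1.2 on mm10; the annotation release is not given in the sources used here. The deposited values are raw UMI counts per gene and barcode, filtered to cells by the authors, from 120355 barcodes. Members and gene lists were chosen with earlier results of these data known. Barcodes were gated as described above, with no doublet caller in the main gate, and UMIs were summed per library. MPA+E was compared with placebo by edgeR 4.0.16 (quasi-likelihood), and tumour, hyperplasia and normal by limma 3.58.1 (voom, 1 fit of 6 libraries), with Benjamini-Hochberg adjustment over all genes that passed the low-count filter. A standard error from edgeR is the log2 fold change divided by the root of F. States came from Seurat 5.3.0 (reciprocal PCA integration of 3 sets, 1000 features, 30 dimensions, resolution 0.3), with the members, the listed genes and the state markers left out of the features. A name needed 3 raised markers, or 4 if the 10 leading genes held none of them. The myofibroblast name also needed 1 of its markers among the leading genes. It was refused where the smooth muscle genes Myh11 or Lmod1 were among them. Both myofibroblast rules were set after the clusters were seen. Within-state tests used the sums per state and library. Each comparison covers every member tested, by name or, where without a call, in part by the range of their values. Of each list up to 4 called genes with the largest change are named. Other software was R 4.3.3, DESeq2 1.42.0, Python 3.11.15 and scanpy 1.11.5. Fits were tested on simulated data.

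The labels tie each hyperplasia library to the tumour library of its number through a shared mouse, and their deviations from the group means correlated at r = 0.314 over 8314 genes. Replicates of a group differed beyond sampling noise (chi-square per degree of freedom 66.0 to 340). Alternatives changed the gate, doublets (Scrublet), the filter, the tool, the clustering resolution and the libraries. No annotation of cells by the authors entered the fits. The marker lists that name the states were partly taken from the study, which chose them on these samples. Intervals and floors cover counting error only. Fmod had 88 to 1175 UMIs per library outside tumours.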

Additional observations from a re-analysis of the deposited data

Results flagged for a closer look

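The response to MPA+E differed between progenitor-like cells and the mean of the other 4 named states for 6 of 9 members, beside 11.9% of 13916 genes. The test of that difference counts states of the same libraries as replicates. The difference in log2 fold change was −1.47 for Aspn, −1.23 for Omd, −0.70 for Lum and −0.59 for Ogn, and 0.90 for Bgn and 0.82 for Prelp. With a library left out it ran from 0.52 to 1.20 for Bgn and from 0.65 to 0.97 for Prelp, whose calls did not hold in every such fit. Aspn and Omd were lower with MPA+E in both libraries of progenitor-like cells, while Aspn was higher in ECM remodelling-like and Omd in preadipocyte-like cells.

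Fmod was also present outside the fibroblasts. In pregnancy the 389 epithelial barcodes, which the comparisons do not use, read 180 CPM of Fmod at a median depth of 4300 UMIs, against 7.93 CPM in the fibroblasts of that library at 4004 UMIs. Thinned to 3000 UMIs, 45.4% of 357 epithelial barcodes held an Fmod UMI (40.1% to 50.7%, exact binomial) and 1.25% of fibroblasts did. Fmod in epithelial barcodes stood above fibroblasts in 6 of the 8 libraries with at least 20 epithelial barcodes, at 36.7 CPM in adult and 71.1 CPM in placebo 2, and no other member exceeded its fibroblast level there.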

How the results depend on the processing

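With each library left out in turn, the number of members called was 0 to 1 of 9 for MPA+E against placebo, 1 to 5 for tumour against hyperplasia and 0 to 4 for hyperplasia against normal gland, against 0, 4 and 0 with all libraries. Hyperplasia against normal gland gave 2 calls with Col1a2 of at least 40 per 10000 UMIs (Bgn and Podn), beside 2290 of 15695 genes. With DESeq2 it gave 4, beside 4067 of 16115 genes. Within states the 7 calls of MPA+E became 16 without a low-count filter and 0 to 8 with a library left out, and the 10 calls of tumour against hyperplasia became 17 with the mouse as a block and 6 to 18 with a library left out. The share of all genes called within states without the low-count filter is not given. Whether the rise to 16 is particular to the members was therefore not tested. Bgn (0.93) and Lum (−0.70) in progenitor-like cells passed without that filter, at log2 fold changes close to those of the filtered fit. With the filter kept, both also passed when the replicate number was taken as a block (0.88 and −0.72), a fit described below. In the test of progenitor-like cells against the other states the 6 called differences kept their sign with any 1 library left out. Not all of the calls of that test were kept with a library left out, and the share of all genes called in those fits is not given. The median share of cells with a UMI, over members and libraries, was 40.4% thinned and 62.7% unthinned. The cause of these shifts was not tested.

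Placebo and MPA+E libraries share only a number. Their deviations from the group means correlated at r = 0.650 over 8314 genes, which with 2 pairs is 1 comparison, and with the replicate number as a block the within-state calls of members rose from 7 to 22 (of all genes from 5.29% to 17.6% of tests), those of members in all fibroblasts stayed at 0 and those of all genes went from 723 to 2229. With the mouse as a block tumour against hyperplasia kept 4 member calls in all fibroblasts, while those of all genes went from 4667 to 6153 of 16115. No paired analysis was possible because the normal libraries carry no mouse number shared with hyperplasia, for that comparison alone.

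Over all genes, calls for MPA+E were 1350 with DESeq2 and 87 to 863 with a library left out, those for tumour against hyperplasia 205 to 6991 with a library left out, and those for hyperplasia against normal gland 4067 with DESeq2 and 1 to 4729 with a library left out, against 2240.

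Log2 fold changes that were not called changed sign in 47 recomputed values. Podn in tumours was −0.0897 with Col1a2 of at least 40 per 10000 UMIs, Podn in progenitor-like cells of tumours −0.0714 with the mouse as a block, and Lum under MPA+E in preadipocyte-like cells −0.0392 at a clustering resolution of 0.5. With a library left out, the values under MPA+E ran from −0.15 to 0.0109 for Lum, −0.0180 to 0.34 for Bgn, −0.30 to 1.46 for Fmod and −0.19 to 0.28 for Prelp. In tumours Podn ran from −0.18 to 0.37, and in hyperplasia against normal gland Ogn from −0.14 to 0.0869 and Prelp from −0.0145 to 0.15. Within states under MPA+E the ranges were −0.20 to 0.0427 (Dcn) and −0.0475 to 0.0205 (Ogn) in progenitor-like, −0.22 to 0.0489 (Dcn) and −0.0113 to 0.0651 (Lum) in preadipocyte-like, −0.0366 to 0.0874 (Lum) in ECM remodelling-like, −0.29 to 0.21 (Bgn), −0.72 to 3.95 (Fmod) and −0.17 to 0.30 (Aspn) in lobular-like, and −0.18 to 0.0378 (Dcn), −0.38 to 0.90 (Fmod), −0.0361 to 0.11 (Prelp), −0.34 to 0.55 (Aspn) and −0.21 to 0.0538 (Podn) in adipogenesis-regulatory-like cells. Within states in tumours they were −0.33 to 0.41 (Podn) in progenitor-like, −0.25 to 0.40 (Lum), −0.12 to 0.10 (Omd) and −0.55 to 0.39 (Podn) in preadipocyte-like, −0.0550 to 0.41 (Lum), −1.34 to 0.77 (Ogn) and −0.12 to 0.54 (Omd) in ECM remodelling-like, and −0.24 to 0.33 (Lum), −0.0799 to 0.56 (Omd) and −0.70 to 0.0874 (Podn) in adipogenesis-regulatory-like cells. No called value changed sign under an alternative that was run, and the 4 member calls of tumour against hyperplasia were lost under none of them except where a hyperplasia library was left out.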
